A study of Homo sapiens with 42 samples.

Results

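The 10 genes described here move iron into the cell, store it, move it out or release it from heme: TFRC, TF, CP, SLC40A1, SLC11A2, CYBRD1, HMOX1, FTH1, FTL and STEAP3. They were chosen by name, because iron genes are classic HIF-2α targets in other tissues, and are 10 of the 60609 genes counted in every library. Their polyA RNA was measured in 786-O cells, a human clear cell renal cell carcinoma line that has lost VHL and lacks functional HIF-1α. Because VHL is absent in every group, wild-type (WT) included, the HIF-2α that the line makes itself is present throughout.

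The 42 libraries fall into 14 groups of 3 biological replicates, prepared in 2 batches with different extraction and library kits. Batch 1 (27 libraries) holds WT, 2 homozygous knock-in lines and 6 overexpression lines. The knock-in lines, named HIF-2α KIN and HIF-1β KIN, are each 1 clone in which the endogenous loci of that protein carry an N-terminal V5-Halo tag. The overexpression lines carry a V5-Halo-tagged transgene under an L30 promoter, selected with puromycin: HIF-1α, its DNA-binding mutant HIF-1α R30E, its dimerization mutant HIF-1αDM, HIF-2α, its DNA-binding mutant HIF-2α R27E and its dimerization mutant HIF-2αDM. Batch 2 (15 libraries) holds WT, HIF-1α, HIF-2α and 2 domain swaps. In HIF-2α/1α the N-terminal structured domains come from HIF-2α and the C-terminal intrinsically disordered region (IDR) from HIF-1α. The other swap, HIF-1α/2α, is the reverse. The genotype label of the HIF-2αDM libraries names HIF-1α, while their titles and descriptions name HIF-2α, and their EPAS1 counts are given below.

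Depth was 42377599 to 101186554 counted reads per library in batch 1 and 76366799 to 109642159 in batch 2. Normalized counts below are counts scaled to the mean library of their batch, so they are compared within a batch and not between batches. HIF1A stood at 242.9 ± 16.8 normalized counts (SD, n = 3, as for all values below) in batch 1 WT and at 2238 to 3036 in the means of the 3 lines with a HIF-1α transgene. EPAS1, which encodes HIF-2α, stood at 14550 ± 2130 in batch 1 WT, at 6160 ± 511 in HIF-2α KIN, and at 45190 to 56140 in the means of the 3 lines with a HIF-2α transgene, HIF-2αDM at 48510 ± 5230 included. The genes chosen as markers of a renal epithelial carcinoma line, PAX8, PAX2, KRT8, KRT18, VIM and CDH6, were present in every library. The lowest single value was 624.1 for PAX2. Markers of blood, endothelial, erythroid and liver cells (PTPRC, CD3E, PECAM1, CDH5, HBB, HBA1, ALB) did not exceed 21.47 normalized counts in any library. In bulk RNA, fewer cells with a transcript and less of it per cell cannot be told apart.

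Iron bound to transferrin (TF) enters cells through the transferrin receptor (TFRC), is reduced in the endosome by the ferrireductase STEAP3 and crosses the membrane through the divalent metal transporter SLC11A2 (DMT1). CYBRD1 is a ferrireductase of the cell surface, FTH1 and FTL are the heavy and light chains of the storage protein ferritin, SLC40A1 (ferroportin) is the iron exporter, and ceruloplasmin (CP) oxidizes exported iron so that transferrin can bind it. HMOX1, heme oxygenase, frees iron from heme. Much of this system is set after transcription: iron regulatory proteins bind stem-loops in the mRNA, called iron-responsive elements, which block translation when they lie in the 5′ untranslated region and slow decay of the mRNA when they lie in the 3′ untranslated region. HIF dimers bind promoters and enhancers at short motifs with the core ACGTG or GCGTG.

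Matches to the letters of an iron-responsive element are shown, by whether they lie in the 5′ or the 3′ untranslated region. GENCODE v44 transcripts were searched for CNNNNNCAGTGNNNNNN in which the 5 bases on either side of the 6-base loop can pair, with G-U pairs allowed. Such letters stood in the 5′ untranslated region of 39 of 19217 genes (0.203%) and in the 3′ untranslated region of 142 of 19583 (0.725%). Among the 10 members, FTH1, FTL and SLC40A1 held 1 each in the 5′ region. TFRC held 4 and TF held 1 in the 3′ region. The search allows no unpaired base among the 5 pairs, so a member without a match may still hold an element. The sequences below run 5′ to 3′ on the mRNA strand, with the 6 loop bases in capitals, and a match is a description of letters rather than of a working element.
FTH1, chr11:61967574-61967603, minus strand: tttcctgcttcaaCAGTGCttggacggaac
FTL, chr19:48965334-48965363, plus strand: tctcttgcttcaaCAGTGTttggacggaac
SLC40A1, chr2:189580661-189580690, minus strand: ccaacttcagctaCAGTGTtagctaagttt
TFRC, chr3:196050979-196051008, minus strand: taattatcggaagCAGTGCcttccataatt
TFRC, chr3:196050575-196050604, minus strand: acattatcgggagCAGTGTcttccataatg
TFRC, chr3:196050510-196050539, minus strand: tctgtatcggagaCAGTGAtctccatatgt
TFRC, chr3:196050463-196050492, minus strand: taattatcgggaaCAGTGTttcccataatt

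Positions are on hg38, the build of the count files. In the RefSeq promoter table (GRCh38.p14), 5 of the 12 windows of 7 members held ACGTG or GCGTG on either strand within 250 bases before a start, beside 43.2% of all 35116 windows, a share near that background. The windows with a match belong to TFRC, SLC11A2, CYBRD1 and FTL, and 1 match of each is shown with the motif in capitals, 88, 157, 147 and 177 bases before a listed start.
TFRC, chr3:196082161-196082190, minus strand: cctcgcgagcgtACGTGcctcaggaagtga
SLC11A2, chr12:51026524-51026553, minus strand: ccaggggccgccGCGTGccccaggggccgc
CYBRD1, chr2:171522315-171522344, plus strand: ccctcggcggccGCGTGatcccgggggtgg
FTL, chr19:48965120-48965149, plus strand: ggcgctacaggcGCGTGacttccccttgct

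How abundant the members are was compared per kilobase of exon, which is the scale on which genes can be set side by side. In WT of batch 2 the ferritin light chain FTL led with 91300 normalized counts per kilobase, followed by FTH1 with 10390, TFRC with 4690 and STEAP3 with 2874. HMOX1 with 711.2, SLC11A2 with 395.2 and CP with 199.4 followed. SLC40A1 and TF stood at 1.01 and 0.127 per kilobase, and CYBRD1 had no read in the 3 libraries. In WT of batch 1, FTL with 107300 and FTH1 with 7370 also led, and TFRC with 992.7 stood below STEAP3 with 3843. The order depends in part on the length used: per kilobase of the longest transcript, batch 2 WT gave 17320 for FTH1, 11860 for TFRC, 966.4 for HMOX1 and 945.8 for SLC11A2, and in batch 1 WT TFRC with 2510 stood above HMOX1 with 1431, where the exon union gave 992.7 and 1053. TF, SLC40A1 and CYBRD1 are therefore near the limit of detection in WT. A group was counted as at the limit where no library held more than 3 reads. Folds of SLC40A1 and CYBRD1 against such a group are given as read ratios, and a group without reads was allowed 3 reads in all. WT of batch 2 held 10 reads of TF and 13 of SLC40A1, with up to 6 and 7 in a library, above that limit. The counting bears on single members, since reads that match several places were not counted, and between 6.82% and 14.1% of the reads of FTH1 and its 24 listed pseudogenes fell on the pseudogenes in batch 2 (0.184% to 1.02% in batch 1). The kits were not read by strand, so reads where CP overlaps HPS3, FTH1 overlaps BEST1 and STEAP3 overlaps STEAP3-AS1 could not be assigned by strand. The same holds for TFRC, which overlaps 3 genes of the opposite strand.

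Which of the members respond to each HIF-α isoform was first asked in batch 2, where each line was compared with the same 3 WT libraries. TFRC fell in all 4 lines and SLC11A2 fell in all 4, HMOX1 rose with either protein that carries the HIF-1α IDR, CP rose most with either protein that carries the HIF-2α IDR, and STEAP3 rose with full-length HIF-2α. A gene is said to have risen or fallen where the edgeR quasi-likelihood test gave an adjusted p of at most 0.01 (Benjamini-Hochberg over all 28724 genes tested), and to be called where its fold change was also at least 2. Statements in either batch that libraries lay above, below or apart from others only describe the values. The share of all genes that separate in the same way was not counted. HIF-1α called 2 members (CYBRD1 and HMOX1, both higher) beside 4.39% of all genes, and 7 members passed at any fold beside 17.1%. HIF-2α/1α called the same 2 members beside 3.48% of all genes, with 5 passing beside 17.2%. HIF-2α called 2 (CP and CYBRD1, both higher) beside 7.55%, with 6 passing beside 27.5%. HIF-1α/2α called CP and CYBRD1 beside 7.72%, with 5 passing beside 28.0%. TF and SLC40A1 passed in none of these 4 comparisons.

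**Figure D1:**
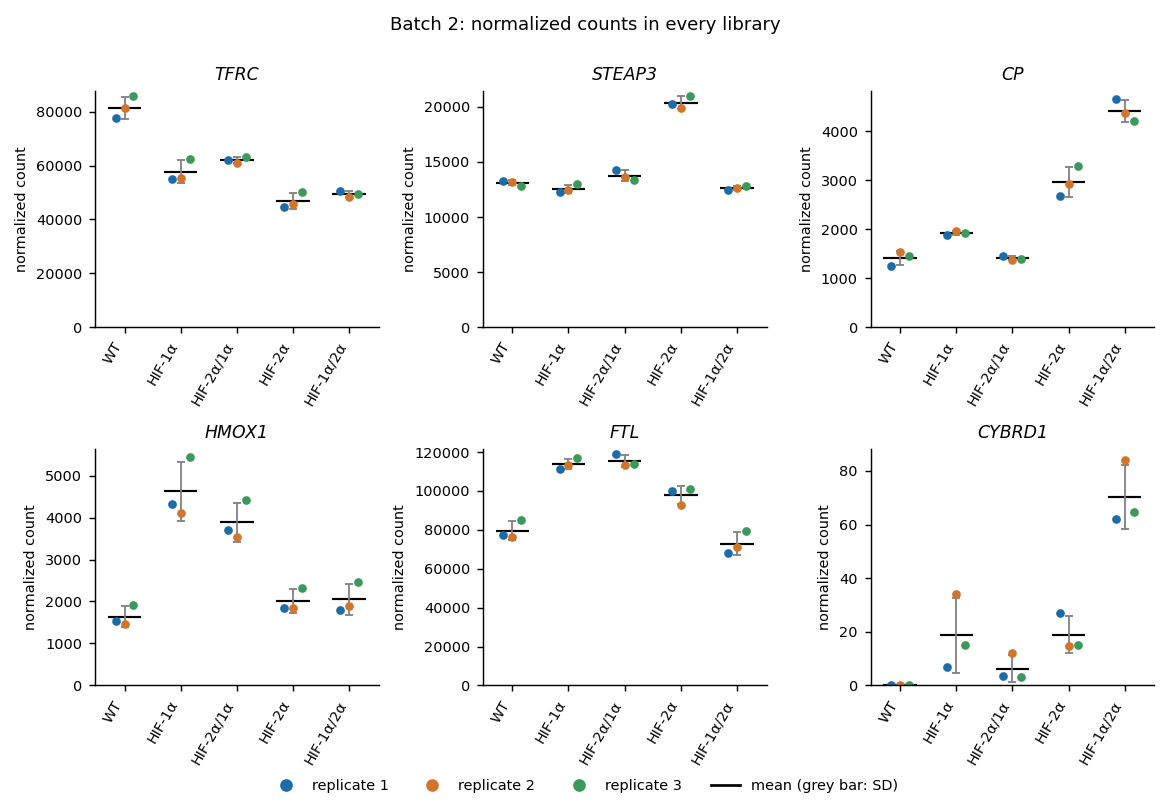
Normalized counts (y axis, linear, from 0) of 6 members in every library of batch 2, by line (x axis). Each point is 1 library, the black line is the mean and the grey bar the SD of 3 libraries. TFRC lies below WT in every line, STEAP3 stands apart in HIF-2α, CP is high with the HIF-2α IDR and HMOX1 with the HIF-1α IDR.

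TFRC carries most of the iron that a dividing cell takes up. Its libraries held 77570, 81220 and 85700 normalized counts in WT of batch 2, 55170, 55290 and 62570 in HIF-1α, 62190, 60920 and 63210 in HIF-2α/1α, 44470, 45700 and 50040 in HIF-2α, and 50730, 48340 and 49380 in HIF-1α/2α. No library of the 4 lines reached the lowest WT library. TFRC fell by 0.50 on the log2 scale in HIF-1α (SE 0.0513, adjusted p = 9.76e-11), by 0.39 in HIF-2α/1α (SE 0.0512, adjusted p = 4.92e-08), by 0.80 in HIF-2α (SE 0.0515, adjusted p = 2.05e-17) and by 0.72 in HIF-1α/2α (SE 0.0514, adjusted p = 6.96e-16). None of these reached a fold of 2. The 2 lines with a HIF-2α IDR stood below the 2 with a HIF-1α IDR, and the lines that share an IDR overlapped.

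In batch 1 TFRC read 19820, 14790 and 17150 in WT, 11450, 11230 and 12400 in HIF-1α and 11730, 14200 and 8512 in HIF-2α. Both lines lay below WT in every library. The log2 differences, -0.56 (SE 0.248, adjusted p = 0.202) and -0.59 (SE 0.248, adjusted p = 0.126), were near those of batch 2 for HIF-1α and smaller for HIF-2α but did not pass in batch 1. The DNA-binding mutant HIF-1α R30E held 10530, 10310 and 6872, also below WT in every library, at a log2 difference of -0.90 (SE 0.249, unadjusted p = 0.00127, adjusted p = 0.0281 in edgeR) that did not pass either. The HIF-2α KIN clone held 5092, 7592 and 5891, and TFRC was called lower there with a log2 change of -1.48 (SE 0.253, adjusted p = 1.81e-04). The HIF-1β KIN clone held 22590, 15620 and 11930 and overlapped WT.

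STEAP3, the endosomal ferrireductase, held 13260, 13220 and 12850 normalized counts in WT of batch 2 and 20230, 19870 and 21030 in HIF-2α. The means of the other 3 lines lay between 12570 and 13770. The HIF-2α libraries thus stood above all 12 others. STEAP3 rose by 0.64 on the log2 scale in HIF-2α (SE 0.0497, adjusted p = 1.21e-14), a 1.55-fold increase. Its log2 differences from WT were -0.06 in HIF-1α, 0.07 in HIF-2α/1α and -0.05 in HIF-1α/2α, with 95% intervals that stayed between -0.158 and 0.168.

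The same gene separated HIF-2α from its mutants in batch 1. STEAP3 read 15160, 17700 and 19720 in WT, 31000, 28570 and 34250 in HIF-2α, 18600, 19280 and 23580 in HIF-2α R27E and 17300, 18980 and 17720 in HIF-2αDM. Every HIF-2α library lay above every library of WT and of both mutants. The rise over WT was 0.84 on the log2 scale (SE 0.155, adjusted p = 3.64e-04) and that over HIF-2αDM was 0.80 (SE 0.155, adjusted p = 8.18e-04), the latter lost without replicate 3 of HIF-2α or replicate 1 of HIF-2αDM (adjusted p up to 0.0111). Over HIF-2α R27E the difference was 0.61 (SE 0.155, adjusted p = 0.0108), which missed the threshold. With the replicate number as a block, which pairs the libraries in this comparison, it was 0.62 with an adjusted p of 1.88e-04.

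SLC11A2, which carries ferrous iron out of the endosome, held 3667, 4016 and 4040 normalized counts in WT of batch 2 and between 2752 and 3491 in the 12 libraries of the 4 lines. WT and the lines did not overlap. The log2 changes were -0.28 in HIF-1α (adjusted p = 4.77e-04), -0.25 in HIF-2α/1α (adjusted p = 0.00199), -0.38 in HIF-2α (adjusted p = 2.73e-06) and -0.48 in HIF-1α/2α (adjusted p = 1.82e-08), with SEs of 0.0629 to 0.0632. The HIF-2α/1α change missed the threshold in 4 of the 6 fits that left out 1 library (replicate 1 or 3 of HIF-2α/1α, replicate 2 or 3 of WT), where it lay at -0.19 at its smallest. In batch 1 no comparison passed for SLC11A2, and the libraries numbered 3 were the lowest of their group in 8 of 9 groups.

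CYBRD1, the surface ferrireductase, went from absent to low. WT of batch 2 had 0 reads in each of 3 libraries, which allows up to 3 reads. The HIF-1α/2α line held 206 reads in all, the HIF-1α line 58, the HIF-2α line 53 and the HIF-2α/1α line 20. Against 3 reads over the WT group, CYBRD1 was at least 20.3-fold higher in HIF-1α, at least 7.44-fold in HIF-2α/1α, at least 21.0-fold in HIF-2α and at least 74.9-fold in HIF-1α/2α. All 4 were called in edgeR (adjusted p = 5.19e-04 or lower), and the HIF-2α/1α call was lost without its replicate 2 (adjusted p = 0.013), the library that held 12.02 of normalized counts against 3.53 and 3.32 in the other 2.

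In batch 1 WT had 1 read of CYBRD1 in 3 libraries, the HIF-1α line 73, HIF-1α R30E 34 and HIF-2α 21. The read ratios to WT were 92.6 (95% interval 16.1 to 3710), 42.7 (7.17 to 1740) and 34.4 (5.54 to 1420), intervals that cover counting error only. Those 3 lines were the ones called. The calls of HIF-1α R30E (adjusted p = 0.00528) and HIF-2α (adjusted p = 0.00565) were lost in 7 and 6 of 12 alternative fits, among them those without replicate 1 or 2 of WT, without replicate 3 of the line and without all libraries numbered 3. HIF-1αDM, HIF-2α R27E and HIF-2αDM held 4, 4 and 11 reads and were not called, and both KIN clones held 0.

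TF, the plasma carrier made mainly by the liver, stayed close to the limit of detection. Its highest library, of the HIF-1α line in batch 1, held 13.91 normalized counts, and 8 of 9 groups in batch 1 had a mean of 1.63 or less. No comparison passed for TF.

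FTL and FTH1 encode the chains of the ferritin shell. FTL held 77290, 76210 and 85070 normalized counts in WT of batch 2, 111400, 113300 and 116900 in HIF-1α, 119100, 113600 and 114100 in HIF-2α/1α, 100200, 92820 and 101100 in HIF-2α, and 68120, 71270 and 79390 in HIF-1α/2α. Every library of the first 3 of these lines stood above WT, while HIF-1α/2α overlapped it. FTL rose by 0.52 (HIF-1α, adjusted p = 2.63e-11), 0.54 (HIF-2α/1α, adjusted p = 1.08e-11) and 0.30 (HIF-2α, adjusted p = 3.3e-06) on the log2 scale, and differed by -0.12 in HIF-1α/2α (adjusted p = 0.0516), with SEs of 0.0507 to 0.0508.

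FTH1 held 20410, 19440 and 22640 in WT of batch 2 and 33650, 32740 and 31500 in HIF-1α, where it rose by 0.65 on the log2 scale (SE 0.108, adjusted p = 6.39e-06). In HIF-1α/2α it held 27290, 24480 and 37050 and rose by 0.51 (SE 0.108, adjusted p = 1.54e-04), although DESeq2 gave an adjusted p of 0.0282 there. HIF-2α/1α and HIF-2α overlapped WT. The heavy chain thus rose with both proteins that hold the HIF-1α structured domains, and the light chain with 3 of 4 lines.

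In batch 1 FTH1 was the ferritin chain that passed. It read 16330, 12000 and 15970 in WT, 51550, 34790 and 35690 in HIF-2α KIN and 47370, 33200 and 53740 in HIF-1α R30E, with no overlap of either line with WT. The log2 changes were 1.46 (SE 0.316, adjusted p = 0.00239) and 1.60 (SE 0.318, adjusted p = 0.00152). The means of the other 6 lines, from 21100 to 27690, were also above that of WT, without passing. Leaving out replicate 1 of HIF-2α KIN or replicate 2 or 3 of WT ended the first call, and leaving out replicate 3 of HIF-1α R30E or replicate 2 of WT ended the second, at adjusted p values up to 0.0227 and 0.0185. FTL passed in no batch 1 comparison, and its libraries numbered 3 were the lowest in 9 of 9 groups. With the replicate block, which pairs the libraries there, FTL passed in HIF-2α KIN (log2 0.67, adjusted p = 0.00343) and in HIF-1α (log2 0.63, adjusted p = 0.00754).

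On the export side, SLC40A1, the only known iron exporter of vertebrate cells, had 3 reads in the 3 WT libraries of batch 1 and 203 in HIF-2α KIN. The normalized counts were 0, 2.86 and 0 in WT and 75.4, 105.6 and 59.8 in HIF-2α KIN. The read ratio was 93.0 (95% interval 31.4 to 455), and SLC40A1 was called (adjusted p = 1.15e-04). Group totals in the other 7 lines of batch 1 were 3 to 26 reads, with none called. The largest of their read ratios to WT was 10.9 (95% interval 3.34 to 56.2), in HIF-1α R30E. The intervals, which cover counting error only, also lay above 1 in HIF-1β KIN, HIF-1α, HIF-1αDM and HIF-2α R27E. Those of HIF-2α and HIF-2αDM included 1. Mean normalized counts were 80.29 in HIF-2α KIN, 9.759 in HIF-1α R30E, 9.254 in HIF-1β KIN and 0.954 in WT. In batch 2 the WT mean was 4.25 ± 3.17 normalized counts and those of the lines ran from 5.67 to 14.14, and no line passed.

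CP, the ferroxidase, held 1251, 1530 and 1450 normalized counts in WT of batch 2, 1874, 1969 and 1923 in HIF-1α, 1449, 1373 and 1399 in HIF-2α/1α, 2683, 2917 and 3287 in HIF-2α, and 4655, 4375 and 4213 in HIF-1α/2α. The order of the groups was HIF-1α/2α, HIF-2α, HIF-1α, then WT and HIF-2α/1α, and only the last 2 overlapped. CP was called higher in HIF-1α/2α with a log2 change of 1.65 (SE 0.0761, adjusted p = 1.94e-22) and in HIF-2α with 1.07 (SE 0.0759, adjusted p = 5.59e-16). In HIF-1α it rose by 0.45 (SE 0.0759, adjusted p = 8.63e-06). The HIF-2α call rests on a fold close to 2, and without replicate 1 of WT the fold fell under it.

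In batch 1 CP varied more. It read 486.9, 507.5 and 381.7 in WT, 757.5, 780.5 and 319 in HIF-1α, 746.1, 706.5 and 404.9 in HIF-2α and 1303, 1152 and 582.3 in HIF-2α R27E. None of the 8 lines passed against WT. HIF-1α R30E, with 96.2, 292.4 and 155.5, and HIF-2α KIN, with 109.2, 209.7 and 235.1, lay below WT in every library at log2 differences of -1.33 (adjusted p = 0.0332) and -1.31 (adjusted p = 0.0242). HIF-2αDM, with 236.4, 231.2 and 356.3, also lay below WT in every library, and HIF-2α R27E lay above WT in every library. With the replicate block the HIF-2α KIN difference was -1.27 with an adjusted p of 0.00425, a call.

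HMOX1, which opens the heme ring and releases its iron, held 1526, 1470 and 1923 normalized counts in WT of batch 2, 4316, 4115 and 5435 in HIF-1α, 3712, 3540 and 4415 in HIF-2α/1α, 1835, 1841 and 2333 in HIF-2α, and 1797, 1890 and 2468 in HIF-1α/2α. The libraries with a HIF-1α IDR lay above all others, and those with a HIF-2α IDR overlapped WT. HMOX1 was called higher in HIF-1α (log2 1.496, SE 0.105, adjusted p = 9.62e-16) and in HIF-2α/1α (log2 1.25, SE 0.105, adjusted p = 3.81e-13). The differences in HIF-2α (0.29, adjusted p = 0.0284) and in HIF-1α/2α (0.32, adjusted p = 0.0128) did not pass. The library numbered 3 was the highest in 5 of 5 groups. Each library of these 2 lines lay above the WT library of its own number. With the replicate block both passed (0.29, adjusted p = 9.51e-05, and 0.32, adjusted p = 1.35e-05), although over all genes the numbers did not pair the libraries of batch 2.

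In batch 1 HMOX1 read 2305, 2179 and 2801 in WT, 5659, 6486 and 8903 in HIF-1α, 5115, 3582 and 5026 in HIF-1α R30E and 3706, 3060 and 3052 in HIF-1αDM. The 3 lines lay above WT in every library, HIF-1αDM without passing. HMOX1 was called higher in HIF-1α (log2 1.53, SE 0.201, adjusted p = 6e-06) and rose in HIF-1α R30E (0.91, SE 0.199, adjusted p = 0.00376), while HIF-1αDM differed by 0.43 (SE 0.197, adjusted p = 0.536). The HIF-1α R30E rise was lost in 5 of 12 alternative fits, those on the compared groups alone, without replicate 1 or 3 of the line and without replicate 1 or 2 of WT.

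**Figure D2:**
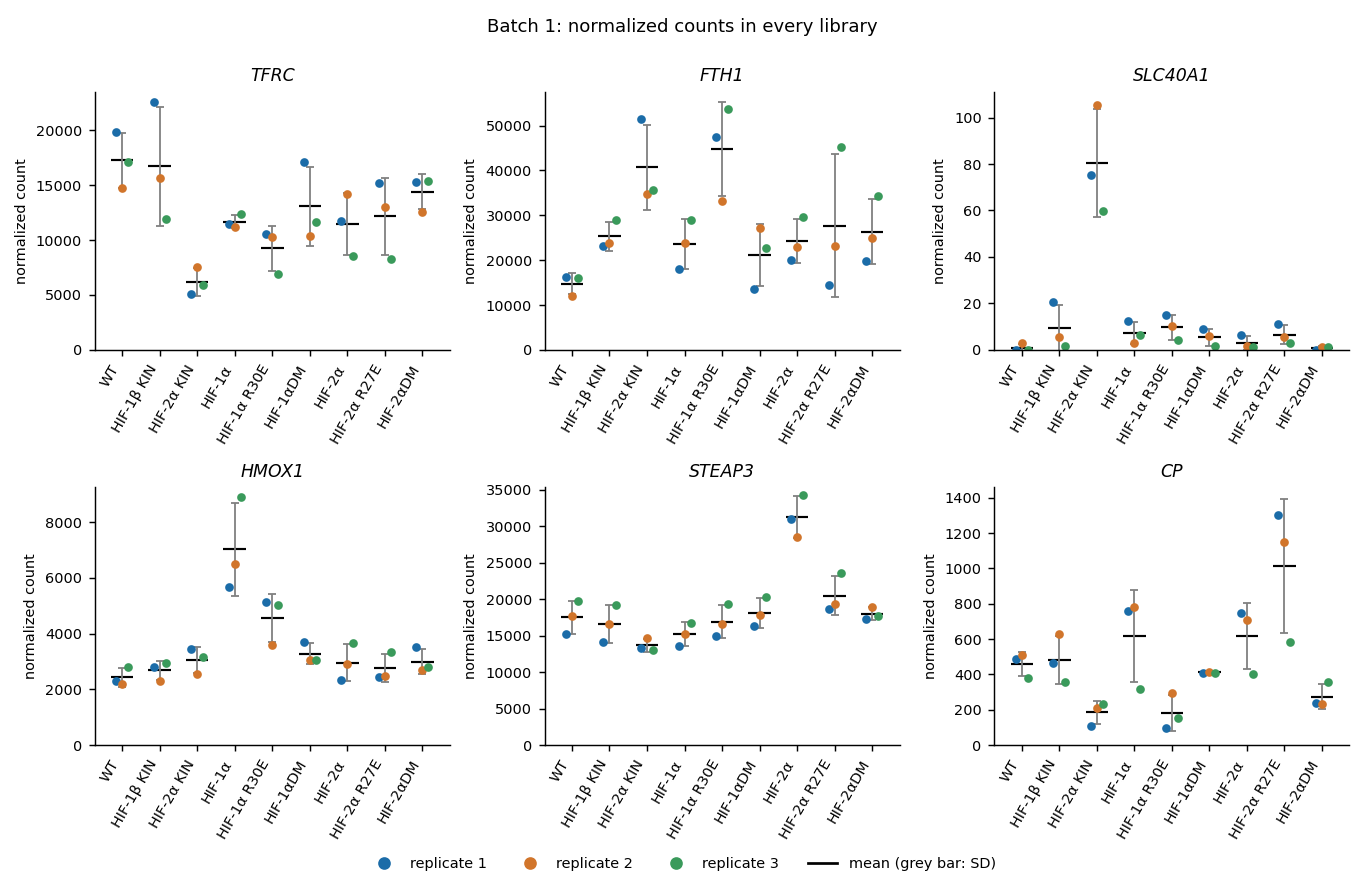
Normalized counts (y axis, linear, from 0) of 6 members in every library of batch 1, by line (x axis). Each point is 1 library, the black line is the mean and the grey bar the SD of 3 libraries. HIF-2α KIN is low for TFRC and high for FTH1 and SLC40A1, HIF-1α is high for HMOX1, and HIF-2α is high for STEAP3.

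The number of members called against WT in batch 1 is set here beside the share of all 23410 tested genes. HIF-2α KIN called 3 (SLC40A1 and FTH1 higher, TFRC lower) beside 4.11% of all genes, HIF-1α 2 beside 3.78%, HIF-1α R30E 2 beside 2.61% and HIF-2α 1 beside 5.73%. HIF-1β KIN, HIF-1αDM, HIF-2α R27E and HIF-2αDM called 0 beside 1.37%, 0.431%, 0.483% and 0.47%. At an unadjusted p under 0.05, 2, 2, 3 and 2 members passed in those 4 comparisons, and DESeq2 also called 0 in each. Without the libraries numbered 3 the counts were 4 for HIF-2α KIN, 2 for HIF-1α and 1 for its R30E mutant, while HIF-2α had 0.

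Whether the responses need DNA binding or dimerization was asked by comparing each functional protein with its mutants. HIF-1α against HIF-1α R30E called 1 member beside 1.75% of all genes: CP was higher in HIF-1α by 1.76 on the log2 scale (SE 0.381, adjusted p = 0.0051). This call was lost in 5 of 12 alternative fits, those on the 2 groups alone, without replicate 1 or 3 of HIF-1α R30E and without replicate 1 or 2 of HIF-1α. CP had not passed against WT in either line, with means of 458.7 in WT, 619 in HIF-1α and 181.4 in HIF-1α R30E. HMOX1, which was called against WT in HIF-1α, did not pass against HIF-1α R30E (means 7016 and 4574). HIF-1α against HIF-1αDM called 1 beside 1.36%, HMOX1, higher by 1.10 (SE 0.199, adjusted p = 0.001). That call was lost without all libraries numbered 3 and without replicate 3 of either line alone. CYBRD1 held 73 reads in HIF-1α and 4 in HIF-1αDM, a read ratio of 20.5 (95% interval 7.68 to 77.3), and missed the threshold (adjusted p = 0.0104).

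HIF-2α against HIF-2α R27E called 0 members beside 3.66% of all genes, with CYBRD1 and STEAP3 under an unadjusted p of 0.05 and 0 called by DESeq2. HIF-2α against HIF-2αDM called 0 beside 3.99%, and STEAP3 rose at 1.74-fold beside 5.4% of genes passing at any fold. CP differed by 1.17 in that comparison (SE 0.374, adjusted p = 0.0484) and was called when no low-count filter was used, when only the 2 groups were fitted or when the libraries numbered 3 were left out. CP had not passed in HIF-2α against WT, with means of 619.2 and 458.7. Its mean was 274.6 in HIF-2αDM, below WT, and 1012 in HIF-2α R27E, above HIF-2α.

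**Figure D3:**
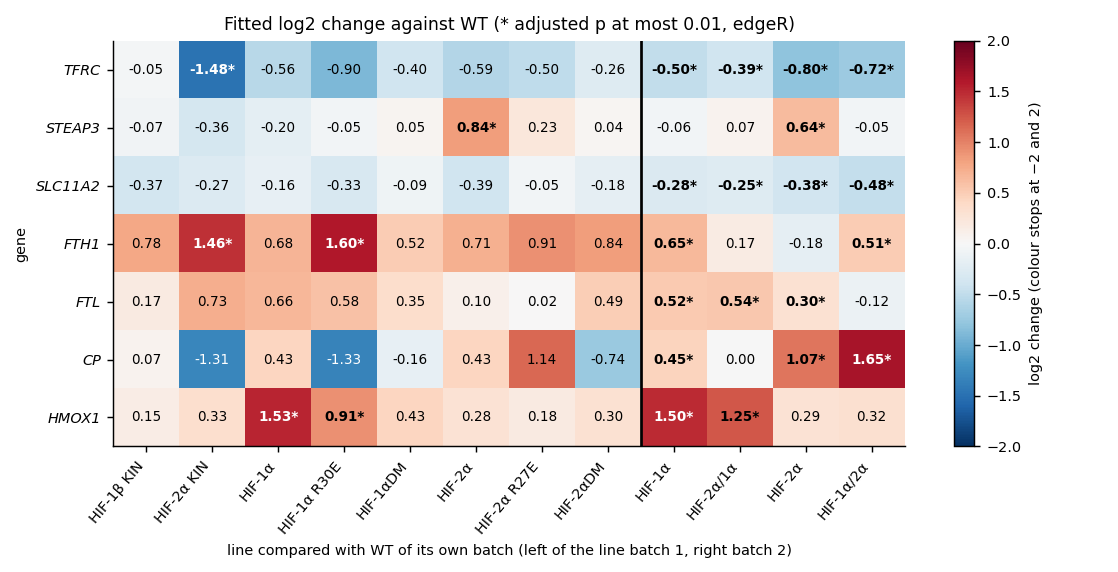
Fitted log2 change against WT (cell values and colour, which stops at -2 and 2) for 7 members (y axis) in 8 lines of batch 1 and 4 of batch 2 (x axis). Stars mark an adjusted p of at most 0.01 in edgeR. TFRC is negative in all 12 columns and passes in HIF-2α KIN and in the 4 lines of batch 2.

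The 4 proteins of batch 2 form a 2 by 2 design, so the part that follows the IDR and the part that follows the structured domains were estimated separately. No independently made lines of a protein are named, so the SEs measure the spread between libraries of a line. A difference between lines cannot be told apart from an effect of the exchanged part or from the interaction. The lines also differed in subunit transcript, to which the transgenes themselves add. EPAS1 means were 12690 in WT, 16470 in HIF-1α, 20670 in HIF-2α/1α, 42310 in HIF-2α and 51170 in HIF-1α/2α. HIF1A means were 294.7, 13250, 9590, 930.1 and 9684 in the same order. The part of this in any member's value was not tested. The IDR effect is the mean of the 2 proteins with the HIF-2α IDR minus that of the 2 with the HIF-1α IDR, and needs no WT library. It called 3 members beside 4.41% of all genes: CP and CYBRD1 higher and HMOX1 lower with the HIF-2α IDR. CP was higher by 1.14 on the log2 scale (SE 0.0534, adjusted p = 4.14e-22), CYBRD1 by 1.71 (SE 0.376, adjusted p = 3e-04), and HMOX1 was lower at -1.06 (SE 0.0736, adjusted p = 2.67e-16). At any fold, 7 members passed, beside 24.8% of genes, with STEAP3 (0.29) higher and TFRC (-0.32), FTL (-0.44) and SLC11A2 (-0.16) lower with the HIF-2α IDR. The SLC11A2 difference missed the threshold in 8 of 12 fits without 1 library.

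The structured-domain effect, HIF-2α domains minus HIF-1α domains, called 1 member beside 1.04% of all genes. CYBRD1 was lower with the HIF-2α domains at -1.68 (SE 0.376, adjusted p = 8.95e-04), a call lost without replicate 2 of HIF-1α (adjusted p = 0.0186). At any fold, 5 members passed, beside 11.4% of genes. CP (-0.51, adjusted p = 3.02e-10) and FTH1 (-0.58, adjusted p = 9.82e-08) were lower and STEAP3 (0.41, adjusted p = 1.49e-12) and FTL (0.22, adjusted p = 5.15e-06) higher with the HIF-2α domains. For TFRC the structured-domain effect was 0.01 with a 95% interval of -0.0588 to 0.0832, and for HMOX1 it was -0.14 with an interval of -0.285 to 0.00126. On these averages, CP moved in opposite directions for the 2 parts of the protein, while STEAP3 moved in the same direction. With the HIF-1α IDR the structured-domain exchange did not pass for STEAP3 or FTL. The HIF-2α/1α and HIF-1α means were 13770 and 12570 for STEAP3 and 115600 and 113900 for FTL. With the HIF-2α IDR both passed. There the HIF-2α and HIF-1α/2α means were 20380 and 12630 for STEAP3 and 98040 and 72930 for FTL.

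**Figure D4:**
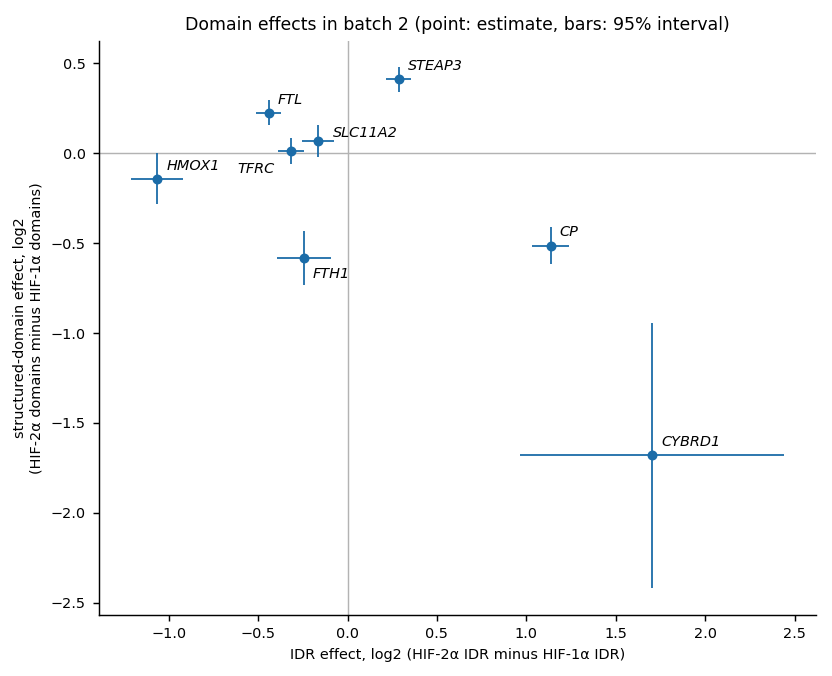
IDR effect (x axis, log2) against structured-domain effect (y axis, log2) in batch 2 for 8 members. Points are edgeR estimates and bars their 95% intervals. CP and CYBRD1 lie to the lower right, HMOX1 to the left near 0 on the y axis, and STEAP3 to the upper right.

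The interaction asks whether the IDR exchange has the same size on both structured domains. It called 0 members beside 1.18% of all genes (3 members had an unadjusted p under 0.05, and DESeq2 called 0), and 2 passed at any fold beside 5.39%: STEAP3 (0.56, SE 0.0703, adjusted p = 1.16e-07) and FTL (0.41, SE 0.0717, adjusted p = 7.72e-05). The steps between lines that differ in 1 part, added after the data were seen, show these sizes. On the HIF-2α structured domains, exchanging the HIF-1α IDR for that of HIF-2α raised STEAP3 by 0.57 (SE 0.0497, adjusted p = 1.17e-12), whereas on the HIF-1α domains the difference was 0.01 (95% interval -0.0907 to 0.104). For FTL the same exchange gave -0.24 (SE 0.0507, adjusted p = 2.88e-04) on the HIF-2α domains and -0.64 (SE 0.0509, adjusted p = 3.39e-14) on the HIF-1α domains, the first lost without replicate 2 of HIF-2α (adjusted p = 0.0158).

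For CP, HMOX1 and TFRC the exchange went the same way on both backgrounds. CP rose by 1.07 on the HIF-2α domains (adjusted p = 1.51e-15) and by 1.2 on the HIF-1α domains (adjusted p = 1.5e-17). HMOX1 changed by -0.96 (adjusted p = 5.03e-10) and -1.17 (adjusted p = 1.08e-12), and TFRC by -0.41 (adjusted p = 1.56e-08) and -0.22 (adjusted p = 6.57e-04), the last lost without replicate 3 of HIF-1α (adjusted p = 0.0477). In counts, the IDR exchange called 1 member on the HIF-2α domains beside 3.18% of all genes and 3 on the HIF-1α domains beside 4.69%. The CYBRD1 call on the HIF-1α domains was lost without replicate 1 or 3 of HIF-1α or replicate 2 of HIF-1α/2α. The structured-domain exchange called 1 (CYBRD1, lost without replicate 2 of HIF-1α/2α or replicate 2 or 3 of HIF-2α) with the HIF-2α IDR beside 2.1% and 0 with the HIF-1α IDR beside 0.554%. In the last comparison 6 members had an unadjusted p under 0.05 and DESeq2 called 0.

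HIF-1α and HIF-2α were measured in both batches, and the difference between batches in each response was tested in a joint fit of 18 libraries. No member was called for HIF-1α (beside 0.00374% of genes called) or for HIF-2α (beside 0%), and none passed at any fold. At an unadjusted p under 0.05 there were 0 and 1 members, and DESeq2 called 0 in both. For HIF-1α the log2 differences of TFRC (0.02, 95% interval -0.382 to 0.416), HMOX1 (-0.08, -0.583 to 0.432) and CP (-0.03, -0.664 to 0.611) had intervals that still allow changes of some size. The member at an unadjusted p under 0.05 was FTH1 in HIF-2α, at -0.96 (SE 0.248, adjusted p = 0.195), whose mean went from 14770 to 24230 in batch 1 and from 20830 to 18370 in batch 2. The rise of HIF1A itself in the HIF-1α line was larger in batch 2 by 1.80 on the log2 scale (SE 0.235, adjusted p = 0.00328), so the same label stands for different transcript levels, and the part of this in any member's value was not tested.

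Around these members, 62 other genes of iron transport and regulation (32), heme synthesis and transport (22) and NRF2-driven antioxidant defence (8) were counted, of which 57 were tested in batch 2. Against WT, HIF-1α called 5 of them (8.77%, beside 4.39% of all genes), HIF-2α/1α 4 (7.02%, beside 3.48%), HIF-2α 5 (8.77%, beside 7.55%) and HIF-1α/2α 7 (12.3%, beside 7.72%). The medians of their log2 changes, 0.09, 0.02, 0.03 and -0.06, lay near those of all genes, 0.03, 0.02, 0.05 and 0.06. By list, the iron genes gave 1, 1, 1 and 4 calls, the heme genes 3, 2, 2 and 2, and the NRF2 genes 1, 1, 2 and 1, in the same order of lines. In batch 1, 54 were tested. HIF-1β KIN called 0% of them beside 1.37% of all genes, HIF-2α KIN 5.56% beside 4.11%, HIF-1α 5.56% beside 3.78%, HIF-1α R30E 5.56% beside 2.61%, HIF-1αDM 1.85% beside 0.431%, HIF-2α 11.1% beside 5.73%, HIF-2α R27E 1.85% beside 0.483% and HIF-2αDM 3.7% beside 0.47%.

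TFR2, the second transferrin receptor, which senses iron-loaded transferrin, held 15.6 ± 7.46 normalized counts in WT of batch 2, 375.2 ± 16.3 in HIF-1α, 165.2 ± 25.2 in HIF-2α/1α, 43.6 ± 3.62 in HIF-2α and 42.4 ± 12.6 in HIF-1α/2α. It was called higher in all 4, from 1.39 on the log2 scale (HIF-1α/2α, SE 0.297, adjusted p = 1.64e-04) to 4.55 (HIF-1α, SE 0.263, adjusted p = 1.39e-18). SLC48A1, which carries heme out of the endolysosome, rose from 301.0 ± 71.9 in WT to 1756 ± 239 in HIF-1α and 1647 ± 133 in HIF-2α/1α, at log2 changes of 2.55 and 2.46. With the HIF-2α IDR SLC48A1 went both ways, at 0.71 in HIF-2α (adjusted p = 3.76e-06) and -0.47 in HIF-1α/2α (adjusted p = 0.003). The latter was lost in 3 of 11 alternative fits. FLVCR2, a transporter first described as a heme importer, went from 34.2 ± 21.1 to 372.7 ± 40.9 in HIF-2α and 354.6 ± 42 in HIF-1α/2α, at log2 changes of 3.46 and 3.39, to 89.6 ± 10.9 in HIF-1α at 1.40 and to 81.1 ± 32.7 in HIF-2α/1α at 1.25, all 4 called. TFR2 and SLC48A1 were thus higher with the HIF-1α IDR and FLVCR2 with the HIF-2α IDR, with IDR effects of -2.54 (SE 0.167), -2.38 (SE 0.083) and 2.10 (SE 0.16), each past the threshold.

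SLC48A1 was also called higher in batch 1 in HIF-1α (2.65), HIF-1α R30E (3.50), HIF-1αDM (1.67), HIF-2α R27E (2.05) and HIF-2αDM (1.302), all log2 changes, and not in HIF-2α (0.54, adjusted p = 0.0589). ABCG2, which exports porphyrins and heme, fell in all 4 lines of batch 2, from 307.7 ± 35.4 in WT to 169.3 ± 18.7 in HIF-1α, 165.5 ± 4.29 in HIF-2α/1α, 81.7 ± 20.5 in HIF-2α and 98.7 ± 34.3 in HIF-1α/2α, at log2 changes of -0.86, -0.89, -1.90 and -1.62. SLC7A11, the cystine importer that feeds glutathione synthesis and restrains ferroptosis, also fell in all 4, from 6836 ± 330 in WT to means of 2135 to 3160. In HIF-1α/2α, MELTF (melanotransferrin) was called lower (-1.93), ERFE (erythroferrone) lower (-1.09) and the ferrireductase STEAP1 higher (1.09). The interaction passed for MELTF (0.90, adjusted p = 6.85e-09) and STEAP1 (-1.13, adjusted p = 0.00402), and not for ERFE (0.07, adjusted p = 0.843). It also passed for SLC48A1 (1.27, adjusted p = 1.97e-07) and TFR2 (1.25, adjusted p = 0.00984). The TFR2 pass was lost in 10 of 17 alternative fits and that of STEAP1 in 5 of 17.

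**Figure D5:**
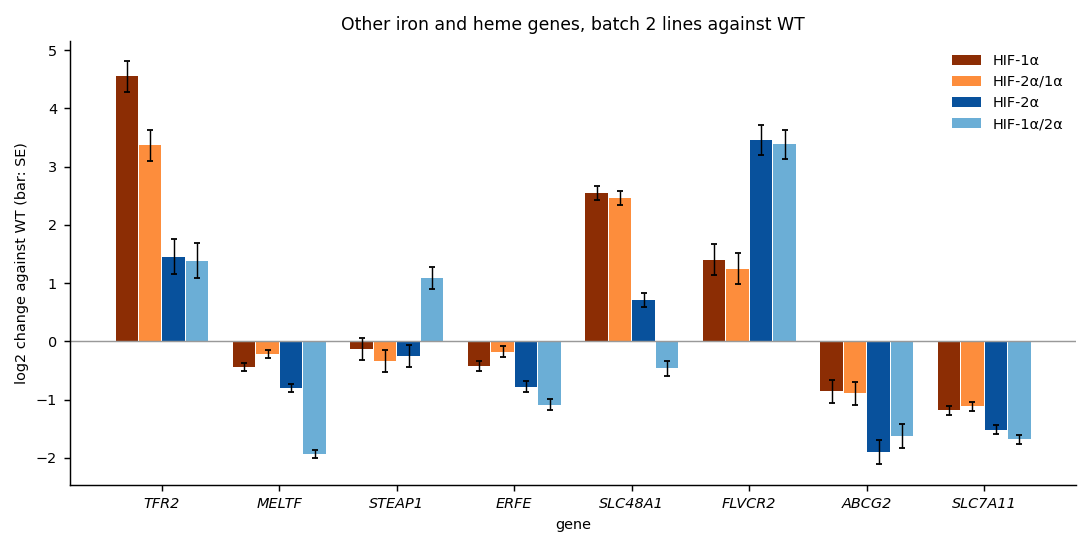
Log2 change against WT (y axis, bars from 0, with SE) of 8 other iron, heme and NRF2 genes (x axis) in the 4 lines of batch 2 (colours). TFR2 and SLC48A1 are highest with the HIF-1α IDR, FLVCR2 with the HIF-2α IDR, and SLC7A11 is below 0 in all 4 lines.

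Across the 14 group means, each centred on its batch, the genes most like each called member were NIPA1 and FKBP14 for TFRC (Pearson r of 0.932 and 0.925), PPARD and RAB5A for CP (0.913 and 0.869), TBKBP1 and HOXB8 for SLC40A1 (0.965 and 0.953), BTD and ANKRD37 for CYBRD1 (0.953 and 0.938), KRT81 and THAP8 for HMOX1 (0.961 and 0.918), and ZNF579 and C4orf48 for FTH1 (0.924 and 0.92). They were picked from about 12461 genes, and the points share WT libraries and clones, so these are descriptions.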

How the data were processed

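PolyA RNA of 786-O cells was sequenced from 42 libraries in 2 batches. The authors aligned reads to hg38 with STAR and counted uniquely mapped reads per gene with HTSeq (union mode, unstranded, GENCODE v32), and deposited raw counts per gene, the unit used here. The submitters' notes list STAR 2.7 and HTSeq 0.11.1. The 10 members and all gene lists were chosen with earlier results of these data known. Each batch was fitted separately in edgeR 4.0.16 (R 4.3.3): TMM scaling, a filter that kept genes averaging 0.5 or more normalized counts, quasi-likelihood tests on all groups of the batch, Benjamini-Hochberg over all genes tested. A call needed an adjusted p of at most 0.01 and a fold of at least 2. Intervals are 95%: normal approximation from the SE for fitted changes, exact binomial for read ratios, covering counting error only, with 3 counts over the group as the floor. Beside the members, the text names list genes called in a line of batch 2 against WT that averaged 50 or more normalized counts, and for each called member the 2 genes most correlated with it over group means. Same-numbered libraries were taken as paired where each of the 3 correlations of their deviations was above 0.1. That held in 6 of 12 comparisons of batch 1 (correlations -0.101 to 0.508 over all pairs) and in none of batch 2. The batch 1 comparisons outside those 6 still shared some deviation, at mean same-number correlations of 0.134 to 0.247. The test was checked on simulated data. Lines compared with the same WT share those libraries. Some genes that these rules select are not reported here.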

Additional observations from a re-analysis of the deposited data

Results flagged for a closer look

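HIF1A in the HIF-1α line rose more over WT in batch 2 than in batch 1, by 1.804 on the log2 scale (SE 0.235, adjusted p = 0.00328, edgeR joint fit). In batch 2 the interaction test, whether the IDR exchange differs in size between the structured domains, passed for 5.39% of all genes at any fold. Among the members and the list genes named in the report it passed for these, with values of 0.405 for FTL, 0.559 for STEAP3, 0.9045 for MELTF (SE 0.1), 1.267 for SLC48A1 (SE 0.163, adjusted p = 1.97e-07), -1.129 for STEAP1 (SE 0.273) and 1.254 for TFR2 (SE 0.334, adjusted p = 0.00984) on the log2 scale. That of TFR2 missed the threshold in 10 of 17 alternative fits and that of STEAP1 in 5 of 17. Groups of 3 libraries were not examined for single libraries that stand apart.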

How the results depend on the processing

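No result that passed its test changed direction under the alternatives run. With the replicate block, 2 differences that did not pass changed sign, FTL in HIF-2α R27E against WT (0.02 to -0.03) and the batch difference of CP in HIF-1α (-0.03 to 0.06). Counts of members called moved as follows. With only the compared groups fitted, HIF-1α R30E against WT gave 1 (2 in the full fit), HIF-1α against HIF-1α R30E 0 (1), HIF-2α against WT in batch 1 0 (1) and HIF-2α against HIF-2αDM 1 (0). Without the libraries numbered 3, an alternative chosen after seeing the data, HIF-1α R30E gave 1, HIF-2α in batch 1 0, HIF-1α against HIF-1αDM 0 (1) and HIF-2α against HIF-2αDM 1. HIF-1α against HIF-1αDM gave 2 with DESeq2, 2 without the low-count filter and 2 with the replicate block. The same-number correlations there, 0.0519, 0.203 and 0.353, did not all exceed the cutoff for pairing. Without the filter, HIF-2α R27E against WT gave 1 (0) and HIF-2α against HIF-2αDM 1. With no fold minimum the counts in batch 2 were 7 for HIF-1α, 5 for HIF-2α/1α, 6 for HIF-2α, 5 for HIF-1α/2α, 7 for the IDR effect, 5 for the structured-domain effect, 2 for the interaction, 5 for HIF-2α against HIF-2α/1α, 5 for HIF-1α/2α against HIF-1α, 5 for HIF-2α against HIF-1α/2α and 2 for HIF-2α/1α against HIF-1α, and in batch 1 they were 2 for HIF-2α and 1 for HIF-2α against HIF-2αDM. Of the other iron and heme genes, HIF-1α in batch 1 gave 5 (3) and HIF-2αDM 1 (2) without the libraries numbered 3, and HIF-1β KIN gave 1 (0) with DESeq2. Leaving out 1 library at a time, member counts ranged from 0 to 4 for HIF-1α R30E, 2 to 3 for HIF-2α KIN, 0 to 1 for HIF-2α in batch 1, HIF-1α against HIF-1α R30E, HIF-1α against HIF-1αDM, HIF-2α against HIF-1α/2α and the structured-domain effect, 1 to 2 for HIF-2α and HIF-2α/1α in batch 2, 1 to 3 for HIF-2α against HIF-2α/1α, and 2 to 3 for HIF-1α/2α against HIF-1α and the IDR effect. Those of the other iron and heme genes ranged from 2 to 5 for HIF-1α in batch 1 and 1 to 2 for HIF-2αDM. With the replicate block HIF-2α KIN called 4 members. The block also took differences past the threshold where the libraries did not meet that cutoff, or where pairing was not examined (the joint fit). In HIF-1α R30E, with same-number correlations to WT of 0.0686, 0.199 and 0.473, these were TFRC (log2 -0.92, adjusted p = 0.0014) and CP (-1.36, adjusted p = 0.00355). In HIF-1α against HIF-1α R30E they were HMOX1 and FTH1 (adjusted p = 0.00841 and 0.00971). In HIF-1α against HIF-1αDM CYBRD1 passed (adjusted p = 0.00494). In batch 2 HMOX1 passed in HIF-2α and in HIF-1α/2α (adjusted p = 9.51e-05 and 1.35e-05) and in HIF-2α/1α against HIF-1α (adjusted p = 0.00509). SLC11A2 passed in HIF-1α/2α against HIF-1α (adjusted p = 0.00807). FTH1 passed in the IDR effect (adjusted p = 2.78e-08) and in HIF-2α against HIF-2α/1α (adjusted p = 2.71e-07). The batch difference of FTH1 in HIF-2α passed as well (-0.95, adjusted p = 1.3e-07). The block ended no pass of a member. DESeq2's size factors within edgeR shifted the median of all genes by at most 0.0547 on the log2 scale. TF, SLC40A1 and CYBRD1 are limited by depth, since WT held 0 to 13 reads per group, and changes of their level below WT were not detectable. The cause of the shifts above was not tested.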
